A study of Mus musculus with 4 samples.

Results

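The STAT genes encode the transcription factors that carry cytokine signals from the cell surface to the nucleus. Transcripts of 6 of them, Stat2, Stat3, Stat4, Stat5a, Stat5b and Stat6, were followed in mouse alveolar macrophages (AMs). They were chosen by gene family name, with earlier results of these data known, and they make up 6 of the 54532 genes in the count table. AMs are the resident macrophages of the airspaces. The control group held 2 libraries of AMs from lungs of wild-type female mice that carried no tumor. The tumor group held 2 libraries of AMs from lungs of wild-type female mice bearing primary 4T1 tumors, which had been in place for 2 weeks. 4T1 is a mouse mammary carcinoma line that spreads to the lung, and the study placed it in the mammary fat pad of adult BALB/c animals to ask how AMs change before metastases form there. All 4 libraries were thus from 1 sex and 1 genotype, and 1 tumor line at 1 time stands for tumor bearing. The labels do not say whether the replicates came from separate mice or from pools, so the p-values measure only the spread between these samples, which may be technical.

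A cytokine that binds its receptor activates Janus kinases (JAKs) held on the receptor tails, and these phosphorylate a STAT protein on a tyrosine. The phosphorylated STAT pairs with another STAT, enters the nucleus and binds short palindromic DNA motifs, until SOCS and PIAS proteins and phosphatases end the signal. In AMs, granulocyte-macrophage colony-stimulating factor (GM-CSF) acts through STAT5 and is needed for their development, while STAT6 serves interleukin-4 (IL-4) and interleukin-13, STAT3 serves the interleukin-6 family and interleukin-10, STAT2 serves interferons and STAT4 serves interleukin-12. RNA counts measure how much transcript of these genes was present. They do not measure phosphorylation, so nothing here is a reading of STAT activity.

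The libraries held between 16167147 and 19205737 counts, and 14256 genes passed the filter on low counts. AM markers were abundant in every library, with 1 gene of 14 higher and 12 lower in the tumor group and a summed level of 16430 and 16570 CPM (counts scaled to the size of the library) in the control libraries against 12570 and 12710 CPM in the tumor libraries. Neutrophil, eosinophil, basophil and mast cell, and hepatocyte markers were low in the control libraries and high in both tumor libraries. The 10 neutrophil markers summed to 9.87 to 10.01 CPM in the control libraries and 3752 to 3794 CPM in the tumor libraries, the 4 eosinophil markers to 0.480 to 0.507 against 2141 to 2158 CPM, the 7 basophil and mast cell markers to 2.29 to 2.34 against 531 to 534 CPM, and the 7 hepatocyte markers to 0.0534 to 0.190 against 639 to 642 CPM. All genes of these 4 lists were higher in the tumor group. In the control libraries, Elane of the neutrophil list, Mcpt8, Ms4a2 and Fcer1a of the basophil and mast cell list, and Alb, Ahsg, Ttr, Apob, Fga and Fgb of the hepatocyte list had 0 counts. B cell markers (4 of 5 higher) summed to 6.21 to 6.30 against 12.2 to 13.2 CPM, and dendritic cell markers (3 of 7 higher and 1 lower) to 13.1 to 13.3 against 37.0 to 38.7 CPM. Markers of monocytes and interstitial macrophages (2 of 7 higher and 4 lower) summed to 38.7 to 38.9 against 34.9 to 37.0 CPM, and those of carcinoma and lung epithelium (2 of 6 tested higher and 3 lower) to 209 to 214 against 140 to 145 CPM. Since these are bulk libraries, fewer cells of a type and less RNA per cell cannot be told apart, and the part of the other cell types in any STAT result was not tested. The methods of the study say that the AMs for RNA sequencing were purified, without giving the procedure there. Elsewhere the study defines AMs as CD45+ CD11b- CD11c+ SiglecF+ cells, a gate that would leave out neutrophils (CD11b+) and hepatocytes (CD45-), and whether it was used for these libraries is not given in the sources used here.

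Stat5a and Stat5b are printed first, because they are the pair whose reads could be exchanged. Their coding sequences were identical at 90.8% of 2291 aligned bases, while all other pairs of the 6 genes were identical at 58.2% to 65.3%. Of the 50-base words of a reference transcript, 608 were shared between the pair, which is 8.21% of the words of Stat5a and 11% of those of Stat5b, and no other pair shared any. The longest identical run was 324 bases, all coding, in exons 6 to 8 of both transcripts. The lines below show the upstream edge of that run in transcript sense, 50 bases before it and 40 bases within it, from GENCODE M21 on build GRCm38, spanning exons 5 and 6. The Stat5a stretch lies at chr11:100865476-100874062 on the plus strand and the Stat5b stretch at chr11:100798662-100801436 on the minus strand, with the intron left out. The capital marks the 1 base at which the stretches differ.
Stat5a: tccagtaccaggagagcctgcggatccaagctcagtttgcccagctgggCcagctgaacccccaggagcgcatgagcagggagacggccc
Stat5b: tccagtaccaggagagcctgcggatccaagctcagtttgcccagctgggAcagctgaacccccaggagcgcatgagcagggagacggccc
The reads were paired. A read pair that lies wholly within the run, or within another stretch the genes share, cannot be assigned to either gene. The sources used here do not state how such pairs were counted. Counts of Stat5a and Stat5b are therefore uncertain to that extent, and those of the other 4 genes are not affected by it.

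Promoters of the STAT genes were searched for the motifs that STAT proteins themselves bind. RefSeq windows of 300 bases (250 before and 50 after a transcription start, build GRCm38.p6) were found for all 6 genes, 9 windows in all. The motifs, read on both strands, were the GAS sequences TTCNNNGAA and TTCNNNNGAA, the latter favoured by STAT6, and GAAANNGAAA, the core of the interferon-stimulated response element (ISRE) bound by STAT2 complexes. They occurred in 8.3%, 6.95% and 3.44% of all 32851 mouse windows. Stat2 had a TTCNNNNGAA match at position -210 and an ISRE core on the minus strand at position -222 from its start, and the second Stat4 window had an ISRE core at position -97. These are shown because they were the only matches, with the motifs in capitals, from chr10:128270251-128270322 and chr1:52008118-52008177, both on the plus strand.
Stat2: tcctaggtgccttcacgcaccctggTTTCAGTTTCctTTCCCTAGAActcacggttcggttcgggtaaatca
Stat4: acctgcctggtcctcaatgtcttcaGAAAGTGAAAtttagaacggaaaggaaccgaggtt
The windows of Stat3, Stat5a, Stat5b and Stat6 and the first window of Stat4 held none of these letters. No window of the 6 genes held TTCNNNGAA. A match is a description of the letters, and no binding was measured.

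Stat6, the factor of IL-4 signalling, had the highest level of the 6 genes, and Stat4 was close to absent. Levels are compared between genes per length, as FPKM (counts scaled to gene length and library size), computed from the counts with the gene lengths in the table. Control AMs held 67.9 ± 0.168 FPKM of Stat6, 29.9 ± 0.168 of Stat3, 13.4 ± 0.237 of Stat5b, 5.81 ± 0.0476 of Stat5a, 5.63 ± 0.220 of Stat2 and 0.0508 ± 0.0256 of Stat4 (SD, n = 2 for each). Tumor AMs held 76.4 ± 0.965, 33.3 ± 0.376, 20.2 ± 0.000314, 6.90 ± 0.169, 6.55 ± 0.248 and 0.0908 ± 0.00188 FPKM in the same order (SD, n = 2 for each). The order was the same in both groups. In the control group, Stat6 was 2.27 times Stat3, Stat3 was 2.23 times Stat5b and Stat5b was 2.31 times Stat5a on the FPKM scale. The lengths in the table exceed the longest reference transcript by unlike amounts. They are 7133 against 3958 bases for Stat5a, 9527 against 6042 for Stat3, 5926 against 4397 for Stat2 and 5539 against 5213 for Stat5b. Ratios, gaps and percentiles between genes therefore depend on the lengths used, and other lengths were not tried. Stat5a and Stat2 did not differ beyond their spread in the control libraries, where their ranges overlapped (5.77 to 5.84 and 5.47 to 5.78 FPKM), and the gap between them in the tumor libraries was slight (6.78 to 7.02 and 6.37 to 6.72 FPKM). Among the genes tested, Stat6 stood at percentile 95.3 of the level per length, Stat3 at 88.8, Stat5b at 79.7, Stat5a at 58.1 and Stat2 at 57.

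**Figure D1:**
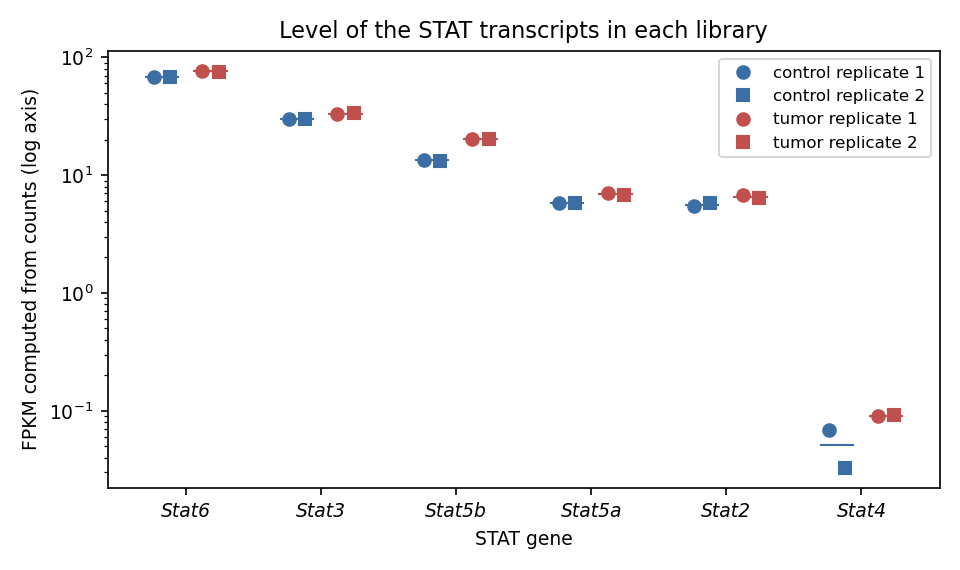
Level of each STAT gene in each library in FPKM on a log axis, with control libraries in blue and tumor libraries in red, 1 point per library and a line at the mean of each pair. Stat6 is highest at 67.8 to 77.1 FPKM and Stat4 lowest at 0.0327 to 0.0921 FPKM, and the gap between control and tumor points is widest for Stat5b among the 5 genes tested.

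All 5 STAT genes that passed the filter on low counts were higher in tumor AMs, by 11.4% to 50.7%, and Stat4 did not pass it. Over all genes tested, 29.0% were called higher and 24.8% lower, 53.8% in all, so a call by itself was common. The median absolute log2 fold change over all genes tested was 0.32, and 4 of the 5 STAT changes were smaller than that. The test was edgeR's quasi-likelihood test with Benjamini-Hochberg adjustment over all genes tested, called at 0.05, and each change below is tumor against control with its standard error. The summed counts of the 6 genes took 0.0717% and 0.0713% of the control libraries and 0.0874% and 0.0870% of the tumor libraries.

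Stat5b, which transmits GM-CSF, prolactin and growth hormone signals, changed most of the 5. Its level was 13.6 and 13.2 FPKM in the control libraries and 20.2 in both tumor libraries, from 1409, 1157, 1939 and 2197 counts. Both tumor libraries lay well above both control libraries, and the spread within each pair was small. Over all genes tested, the fitted spread between replicates beyond counting error was small too (coefficient of variation 0.0303). It may be technical, as the labels do not say whether replicates were separate mice. The change was 0.59 ± 0.05 on the log2 scale, a 1.51-fold rise (edgeR adjusted p = 1.18e-11), larger in size than that of 70.6% of the genes tested. The gene lies on chromosome 11 from 100780731 to 100850724 on the minus strand (ENSMUSG00000020919). Stat5a, its close relative, which serves the same receptors, had 5.84 and 5.77 FPKM in the control libraries and 7.02 and 6.78 FPKM in the tumor libraries, from 781, 650, 867 and 949 counts. Its groups did not overlap, and the rise was 0.25 ± 0.07 on the log2 scale, or 1.19-fold (edgeR adjusted p = 0.00293). Stat5a lies on chromosome 11 from 100859351 to 100885169 on the plus strand (ENSMUSG00000004043).

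Stat5b made up more of the STAT5 counts in both tumor libraries than in both control libraries. Stat5b took 64.3% of the 2190 STAT5 counts in control replicate 1 (exact 95% binomial interval 62.3 to 66.3) and 64.0% of 1807 in control replicate 2 (61.8 to 66.2). It took 69.1% of 2806 in tumor replicate 1 (67.4 to 70.8) and 69.8% of 3146 in tumor replicate 2 (68.2 to 71.4). The intervals of the control libraries did not reach those of the tumor libraries, and within each group they overlapped. On the FPKM scale, with the gene lengths in the table, Stat5b was 2.32 and 2.29 times Stat5a in the control libraries. It was 2.88 and 2.98 times Stat5a in the tumor libraries. The intervals cover counting error alone and not the spread between samples. The difference in share between the groups was not tested, and an exact permutation of 2 against 2 libraries cannot reach 0.05.

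**Figure D2:**
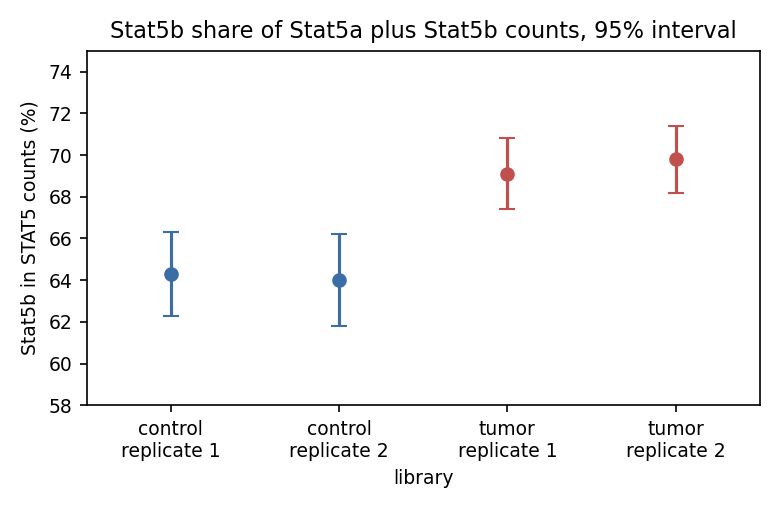
Share of Stat5b in the summed counts of Stat5a and Stat5b in each library, in percent, with the exact 95% binomial interval as bars and the axis running from 58 to 75 rather than from 0. Both control libraries lie at 64.0% to 64.3% and both tumor libraries at 69.1% to 69.8%, with no overlap of their intervals.

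Stat3, which serves interleukin-6, interleukin-10 and granulocyte colony-stimulating factor, had 30.0 and 29.8 FPKM in the control libraries and 33.0 and 33.5 FPKM in the tumor libraries. The counts were 5355, 4473, 5445 and 6269. The groups were apart by more than the spread within them, though the step was small. The rise was 0.16 ± 0.03 on the log2 scale, or 1.11-fold (edgeR adjusted p = 4.38e-05). Stat6 had 68.1 and 67.8 FPKM in the control libraries and 77.1 and 75.7 FPKM in the tumor libraries, from 5616, 4712, 5875 and 6539 counts. It too was higher in both tumor libraries, by 0.17 ± 0.03 on the log2 scale, or 1.12-fold (edgeR adjusted p = 1.16e-05). These genes moved in step, as the ratio of Stat3 to Stat6 FPKM was 0.441 and 0.439 in control AMs and 0.428 and 0.443 in tumor AMs, where the ranges overlapped. Stat3 lies on chromosome 11 from 100885098 to 100939540 on the minus strand (ENSMUSG00000004040), and Stat6 on chromosome 10 from 127642986 to 127660957 on the plus strand (ENSMUSG00000002147).

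Stat2, the partner of IRF9 in the interferon-stimulated complex, was the least secure of the 5 calls. It had 5.47 and 5.78 FPKM in the control libraries and 6.72 and 6.37 FPKM in the tumor libraries, from 608, 541, 690 and 741 counts. The groups did not overlap, and the rise was 0.22 ± 0.08 on the log2 scale, or 1.16-fold (edgeR adjusted p = 0.0177). The call was lost without control replicate 1 (0.17, edgeR adjusted p = 0.196), without tumor replicate 1 (0.17, edgeR adjusted p = 0.0918) and in the DESeq2 Wald test (0.21, adjusted p = 0.113). Stat2 lies on chromosome 10 from 128270559 to 128292849 on the plus strand (ENSMUSG00000040033).

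Stat4, the factor of interleukin-12 signalling in T and NK cells, had 5 and 2 counts in the control group and 6 and 7 counts in the tumor group. That is 0.267 and 0.127 CPM against 0.347 and 0.357 CPM, where 3 counts, the limit a count of 0 allows, are worth 0.153 to 0.19 CPM. Both tumor values were above both control values, but on so few counts the ratio of the summed counts, 13 to 7, was 1.74 per unit of depth with an exact 95% interval of 0.644 to 5.14 that covers counting error alone. A difference was not detectable at this depth. In the fit without a filter its change was 0.77 ± 0.94 on the log2 scale (edgeR adjusted p = 0.624). The 12 T and NK cell markers, in which Stat4 is best known, summed to 6.88 and 8.24 CPM in the control libraries and 30.1 and 29.2 CPM in the tumor libraries, with 6 of 9 tested markers higher, and their part in the Stat4 counts was not tested. Stat4 lies on chromosome 1 from 51987148 to 52107189 on the plus strand (ENSMUSG00000062939).

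**Figure D3:**
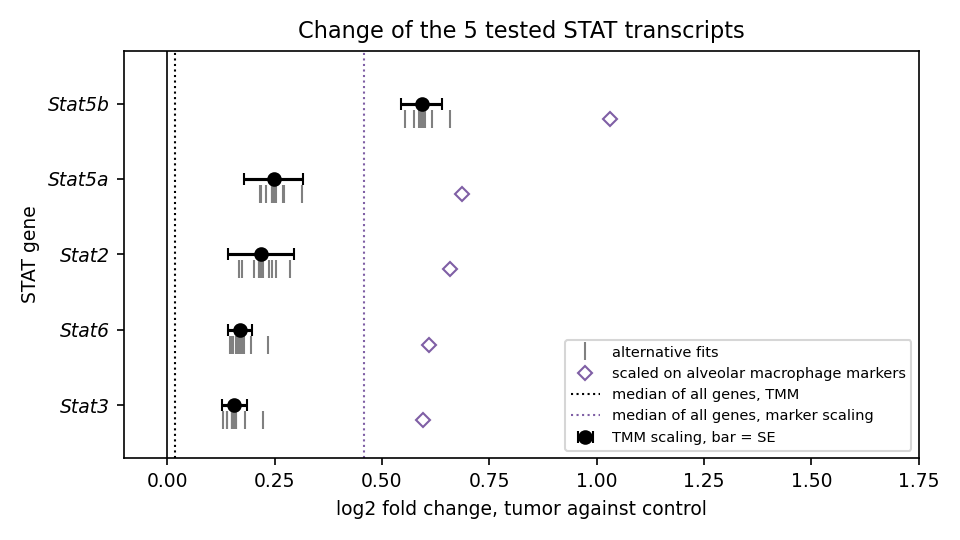
Change of each of the 5 tested STAT genes, tumor against control, as log2 fold change from edgeR with its standard error as bars, under the main scaling (TMM, black), under scaling on the 14 AM markers (diamonds) and under the other alternative fits (grey ticks), with dotted lines at the median of all genes tested. All 5 lie above 0 throughout, from 0.16 to 0.59 under TMM and from 0.60 to 1.03 under AM marker scaling, with Stat5b highest in each.

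Because the AM markers made up less of the tumor libraries, the STAT genes were also scaled to them. The median of all genes tested then moved from 0.0183 to 0.457 on the log2 scale, and 91.6% of all calls were higher rather than 53.9%. Such a scaling shifts all genes alike, so by its construction the STAT changes relative to that median stay the same, at 0.20 for Stat2, 0.14 for Stat3, 0.23 for Stat5a, 0.57 for Stat5b and 0.15 for Stat6. All 5 were called higher under this scaling too, with log2 changes of 0.66, 0.60, 0.69, 1.03 and 0.61 in that order.

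Shares of the summed level are given as a description, and they too depend on the gene lengths used. Of the summed FPKM of the 6 genes, Stat5b made up 11% and 10.8% in control AMs and 14.0% and 14.2% in tumor AMs. Stat6 made up 55.3% and 55.4% against 53.5% and 53.1%, and Stat3 24.4% and 24.3% against 22.9% and 23.5%. Stat5a stayed between 4.72% and 4.87% and Stat2 between 4.45% and 4.73% in all 4 libraries. The sum itself was 123 and 122 FPKM in the control libraries and 144 and 143 FPKM in the tumor libraries.

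The genes whose pattern over the 4 libraries was most like each STAT gene were found by the root mean square difference of log2 CPM centred on each gene's mean. The nearest to Stat5b were Arhgef4 (0.00621), E4f1 (0.00723) and Grk2 (0.00839). The nearest to Stat5a were Fxr1 (0.00844), Unc50 (0.00930) and Nucb1 (0.00949), and to Stat2 they were Ss18l1 (0.00419), C2cd3 (0.00804) and D2hgdh (0.0105). Clip1 (0.00617), Fam222b (0.00648) and Rexo1 (0.00761) came nearest to Stat3, while Nr3c1 (0.00171), which encodes the glucocorticoid receptor, Wdsub1 (0.00312) and Rmnd1 (0.00347) came nearest to Stat6. Such likeness was common with 4 libraries, since between 171 genes (Stat5b) and 731 genes (Stat3) lay within 0.05.

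Stat3, Stat5a and Stat5b sit side by side on chromosome 11 and did not share their changes with all of their neighbours. Stat3 and Stat5a meet tail to tail and overlap by 72 bases on opposite strands, and Stat5b lies head to head with Stat5a, 8627 bases away. Within 50 kb of Stat5b, the potassium channel gene Kcnh4 fell by 1.13 ± 0.08 on the log2 scale and the endosomal GTPase gene Rab5c fell by 0.18 (edgeR adjusted p under 0.05 for both), and Ghdc was not called. On chromosome 10, Stat6 overlaps the transcriptional corepressor gene Nab2 by 40 bases on the opposite strand, and Nab2 fell by 1.44 ± 0.09 (edgeR adjusted p = 1.07e-13) while Stat6 rose. The lipoprotein receptor gene Lrp1 near Stat6 fell by 0.64 ± 0.02, and Nemp1 was not called. The strand setting of the counting was not given in the sources used here, so reads in the overlaps cannot be assigned with certainty.

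Stat2 had 7 tested neighbours within 50 kb, of which 4 were higher and 1 lower, beside 29.0% higher and 24.8% lower over all genes tested. The deadenylase gene Pan2 rose by 0.53 ± 0.09 and the citrate synthase gene Cs by 0.10 ± 0.03 on the log2 scale. Il23a, which encodes the p19 chain of interleukin-23 and lies 3290 bases from Stat2, fell by 1.67 ± 0.19. Apof, an apolipoprotein gene 406 bases from Stat2, had 0, 0, 60 and 54 counts, at least 14.5-fold higher in the tumor group, and Apon had 0, 0, 26 and 30, at least 7.9-fold higher, both against a floor of 3 counts per control library. Both apolipoprotein genes are known from liver, and the hepatocyte markers given above moved with them. Cnpy2 and Timeless were not called. None of the 7 neighbours of Stat4 passed the filter.

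Among the 4 kinases upstream of the STAT proteins, 3 were higher and 1 was lower, beside 29.0% higher and 24.8% lower over all genes tested. Jak2 and Jak3 had larger log2 changes than any of the 5 STAT genes. Jak2, the kinase of the GM-CSF and growth hormone receptors, had 10.97 and 11.2 FPKM in the control libraries and 27.2 and 28.1 FPKM in the tumor libraries, a rise of 1.32 ± 0.05 on the log2 scale (edgeR adjusted p = 2.68e-19). Jak3, which works with the common gamma chain of lymphoid cytokine receptors, had 2.38 and 3.29 FPKM against 6.83 and 7.01 FPKM and rose by 1.30 ± 0.11 (edgeR adjusted p = 2.65e-11). Jak1, which serves interferon, interleukin-6 and IL-4 receptors, had 40.9 and 40.1 FPKM against 51.1 and 51.4 FPKM and rose by 0.34 ± 0.03 (edgeR adjusted p = 3.67e-11). For all 3 of these kinases both tumor libraries were above both control libraries. Tyk2, the partner kinase in interferon and interleukin-12 signalling, had 20.5 FPKM in both control libraries and 17.5 and 18.7 FPKM in the tumor libraries, and it fell by 0.18 ± 0.04 (edgeR adjusted p = 5e-04) under TMM but was higher by 0.26 under AM marker scaling. Jak1 had the highest level per length of the kinases in both groups. Jak2 passed Tyk2 in the tumor libraries.

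**Figure D4:**
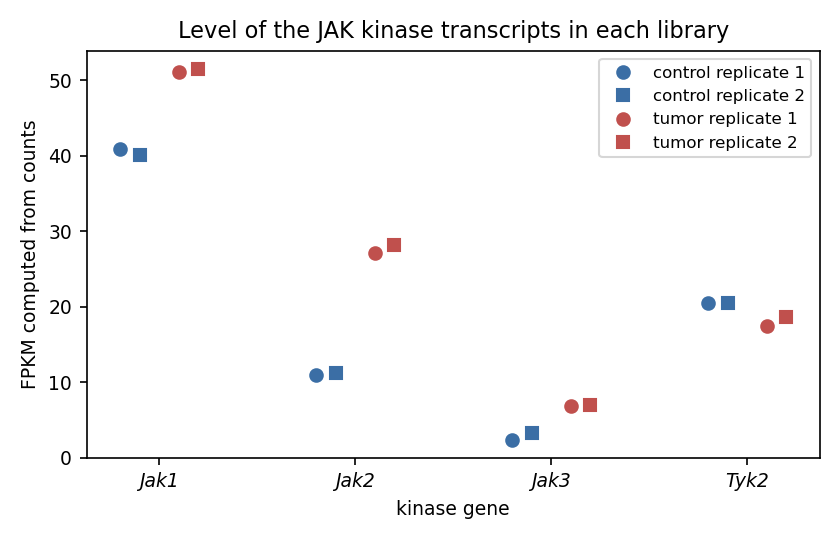
Level of each JAK kinase gene in each library in FPKM on a linear axis, control in blue and tumor in red, 1 point per library. In proportion Jak2 and Jak3 show the widest gaps, from 10.97 and 11.2 to 27.2 and 28.1 FPKM and from 2.38 and 3.29 to 6.83 and 7.01 FPKM, while Tyk2 lies slightly lower in the tumor libraries.

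Of 147 genes listed around the STAT proteins as kinases, receptors, ligands, inhibitors, partners and targets, 127 were tested. Of these, 65 were higher (51.2%), 28 lower (22%) and 34 not called, against 29.0% higher and 24.8% lower over all genes tested, and their median log2 change was 0.32 against 0.0183 over all genes tested. Under AM marker scaling 94 of the 127 were higher and 10 lower, where 9395 of all 14256 genes tested (65.9%) were higher and 867 lower. Of the 147 genes, 5 were also on a cell marker list, namely Chil3 and Mrc1 (AM), Prf1 (T and NK cell), Il5ra (eosinophil) and Cdh1 (carcinoma and lung epithelium).

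**Figure D5:**
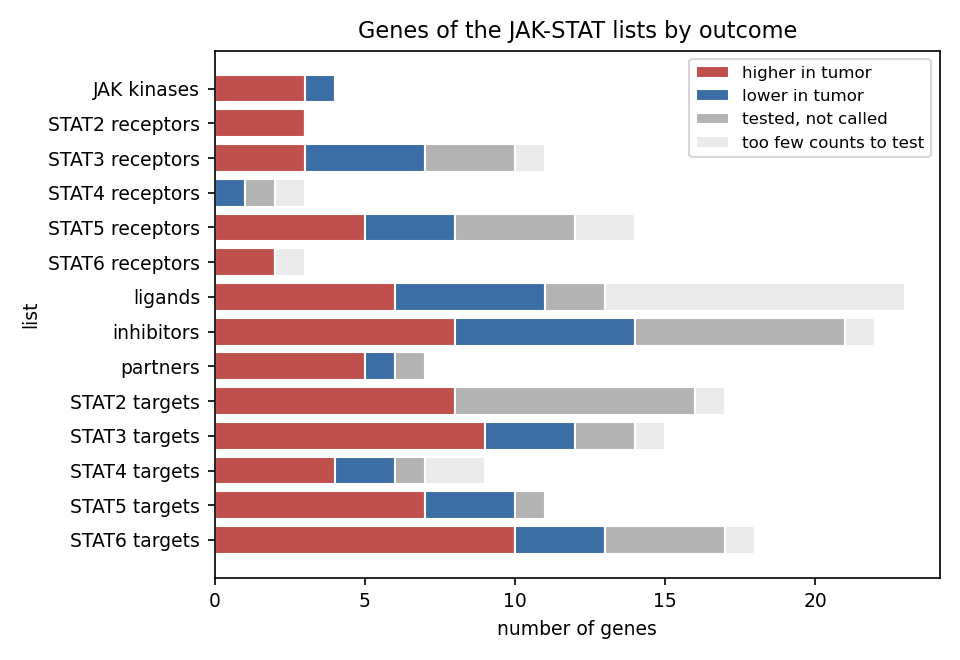
Number of genes called higher, called lower, not called or too low to be tested in each list of the JAK-STAT pathway, tumor against control (edgeR adjusted p under 0.05). The STAT2 targets hold 8 genes higher and 0 lower, the STAT6 targets 10 higher and 3 lower, and the STAT3 receptors 3 higher and 4 lower. Over all genes tested, 29.0% were higher and 24.8% lower.

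Among receptors, the tested genes of the STAT6 and STAT2 lists were higher, where 29.0% of all genes tested were higher. Those of GM-CSF were lower under TMM, though Csf2ra turned under AM marker scaling. Il4ra, the ligand-binding chain for IL-4, had 136 and 139 CPM in the control libraries and 221 and 213 CPM in the tumor libraries and rose by 0.66 ± 0.04 on the log2 scale (edgeR adjusted p under 0.05, as for each change named in the pathway). Il13ra1, its partner chain, rose by 0.47, so both tested STAT6 receptor genes were higher, while Il13ra2 was at or under 3 counts in each library. The 3 STAT2 receptor genes were all higher, Ifnlr1 from 0 counts in the control libraries, and among them were the type I interferon receptor chains Ifnar2 (0.99 ± 0.08) and Ifnar1 (0.63 ± 0.05).

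The GM-CSF receptor genes, whose proteins feed STAT5, all fell under TMM, with Csf2ra in the other direction under AM marker scaling. Csf2rb, the shared beta chain, had 1478 and 1484 CPM in the control libraries and 1051 and 1050 CPM in the tumor libraries and fell by 0.49 on the log2 scale. Its near-identical paralog Csf2rb2 had 777 and 763 CPM against 488 and 476 CPM and fell by 0.68, with reads that could be exchanged between them. Csf2ra, the alpha chain, had 555 and 581 CPM against 434 and 447 CPM and fell by 0.37 under TMM but was higher by 0.07 under AM marker scaling. Csf2rb and Csf2rb2 were lower under that scaling as well, by log2 changes of -0.05 and -0.24. Of the 12 tested STAT5 receptor genes 5 were higher and 3 lower, beside 29.0% higher and 24.8% lower over all genes tested, with a median log2 change of 0.12. Under AM marker scaling 9 were higher and 2 lower, and 2 were higher where at least 10 counts were required in each library. The higher ones included Il5ra, the eosinophil growth factor receptor, with 5, 2, 337 and 401 counts (6.57 on the log2 scale), Il2rb (2.45), known from T and NK cells, and Crlf2 (0.32), the receptor for thymic stromal lymphopoietin. The eosinophil markers, which include Il5ra, moved with it, and their part in its rise was not tested.

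Of 10 tested STAT3 receptor genes, 3 were higher and 4 lower, with 29.0% higher and 24.8% lower over all genes tested. The counts thus say little about the list, and the median log2 change of these genes was -0.25. Under AM marker scaling 4 were higher and 2 lower, where 65.9% of all genes tested were higher. Csf3r, the granulocyte colony-stimulating factor receptor, had 65.9 and 65.6 CPM in the control libraries and 648 and 668 CPM in the tumor libraries and rose by 3.32 ± 0.03 on the log2 scale. The neutrophil markers rose beside it, and their part was not tested. Lifr (2.25) and Il6ra (0.32) were the other higher genes. Lepr, the leptin receptor, fell by 1.29, Il10ra fell by 0.56, and Il6st, the gp130 chain shared by the interleukin-6 family, fell by 0.49 under TMM but was not called under AM marker scaling (-0.05). For STAT4, the interleukin-12 receptor chain Il12rb2 had 59.2 and 53.3 CPM against 31.1 and 30.9 CPM and fell by 0.86 ± 0.07, Il12rb1 was not called, and Il23r was at 0 in each library.

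Of 23 ligand genes, 13 passed the filter. Of these, 6 were higher (2 where at least 10 counts were required in each library) and 5 lower (3 under AM marker scaling). The shares over all genes tested were 29.0% higher and 24.8% lower. Il2, Il3, Il5, Il21, Ifnb1 and Ifng were at or under 3 counts in each library. Il4, the ligand of STAT6 signalling, had 3 and 4 counts in the control group and 78 and 92 counts in the tumor group, a log2 rise of 4.46. Basophils and eosinophils are known to make IL-4, and the markers of both rose beside it. Il12b (2.80) and Ebi3 (1.72), chains of the interleukin-12 family, were also higher. Lif, an interleukin-6 family cytokine, had 54.7 and 51.5 CPM against 14.2 and 15.1 CPM and fell by 1.86. Il23a fell by 1.67 and Il6 by 0.56 under TMM, and Il6 was not called under AM marker scaling (-0.12).

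Of 21 tested inhibitor genes, 8 were higher, 6 lower and 7 not called, near the 29.0% higher and 24.8% lower over all genes tested, and their median log2 change was 0.07. Under AM marker scaling 18 were higher and 0 lower, and without control replicate 2 or without the filter on low counts 5 were higher. Socs2, which restrains growth hormone signalling through STAT5, had 42.3 and 41.5 CPM in the control libraries and 75.7 and 72.4 CPM in the tumor libraries and rose by 0.82. Pdlim2, which promotes the degradation of STAT4, rose by 1.13, and Pias3, an inhibitor of STAT3, rose by 0.29. Socs4 fell by 0.51 under TMM and was not called under AM marker scaling (-0.07). Ptpn11, which encodes the phosphatase SHP2, fell by 0.38 and Socs7 by 0.29 under TMM, but under AM marker scaling neither was called, at log2 changes of 0.06 (edgeR adjusted p = 0.29) and 0.15 (edgeR adjusted p = 0.115).

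Of the 7 partner genes 5 were higher and 1, Ncoa1, lower, beside 29.0% higher and 24.8% lower over all genes tested. Irf9, which joins STAT2 in the interferon-stimulated complex, had 13.9 and 18.9 CPM in the control libraries and 35.2 and 33.7 CPM in the tumor libraries and rose by 1.08 ± 0.11 on the log2 scale. Crebbp (0.51), a histone acetyltransferase that STAT proteins recruit, and Nmi (0.49), a STAT-binding protein, were also higher. The coactivator gene Ncoa1 fell by 0.10 under TMM (edgeR adjusted p = 0.033) but was higher by 0.34 under AM marker scaling. Its call was lost at an adjusted p under 0.01, without control replicate 1 (-0.10) and without tumor replicate 2 (-0.089).

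Of the 16 tested STAT2 targets, 8 were higher, 0 lower and 8 not called, beside 29.0% higher and 24.8% lower over all genes tested. The median log2 change of these targets was 0.86. Oas2, an interferon-induced sensor of double-stranded RNA, had 1.60 and 1.14 CPM in the control libraries and 20.7 and 19.8 CPM in the tumor libraries, a rise of 3.86. Oasl2 (3.05) and Rtp4 (2.32), also interferon-induced, followed. These genes started from low levels, with the summed level of all 17 at 60.6 and 69.3 CPM in the control libraries and 142 and 136 CPM in the tumor libraries.

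STAT5 targets held 7 higher and 3 lower of 11 tested, beside 29.0% higher and 24.8% lower over all genes tested. Their median log2 change was 0.35, and their directions differed between well-known members. Pim1, a survival kinase induced by STAT5, had 462 and 460 CPM in the control libraries and 943 and 968 CPM in the tumor libraries and rose by 1.05 ± 0.02 on the log2 scale. Pim2 rose by 0.84. Ccnd2, the D-type cyclin of STAT5-driven growth, had 816 and 826 CPM against 262 and 261 CPM and fell by 1.65 ± 0.03. Cish, a feedback inhibitor and widely used STAT5 readout, had 103 and 107 CPM against 94.9 and 91.7 CPM and fell by 0.17 under TMM but was higher by 0.27 under AM marker scaling. Osm likewise fell by 0.25 under TMM and was higher by 0.19 under AM marker scaling.

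Of 14 tested STAT3 targets, 9 were higher and 3 lower, beside 29.0% higher and 24.8% lower over all genes tested. The median log2 change of these targets was 0.45. Saa3, an acute-phase gene, had 2, 1, 2927 and 3347 counts and was at least 889-fold higher against the floor of 3 counts per control library. Lcn2 (8.41) and Hp (5.28), which are also made by neutrophils and liver cells, were the next, and markers of both cell types rose beside them. Il1rn, the interleukin-1 receptor antagonist, had 639 and 637 CPM against 221 and 207 CPM and fell by 1.58. Bcl3 fell by 0.44 under TMM and was not called under AM marker scaling (-0.0037). Socs3, the main feedback inhibitor of STAT3, fell by 0.13 under TMM but was higher by 0.31 under AM marker scaling.

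The STAT6 targets held 10 higher and 3 lower of 17 tested, beside 29.0% higher and 24.8% lower over all genes tested. Their median log2 change was 0.66. Alox15, a lipoxygenase of IL-4-treated macrophages and of eosinophils, had 4 and 5 counts in the control group and 12541 and 14084 counts in the tumor group, a log2 rise of 11.4. The eosinophil markers rose beside it, from 0.480 to 0.507 CPM in the control libraries to 2141 to 2158 CPM in the tumor libraries, and their part in its rise was not tested. Ccl17 (3.77), a chemokine for type 2 T cells, and Mgl2 (3.41), a lectin of IL-4-treated macrophages, were also higher. Mrc1 and Chil3, which mark IL-4-treated macrophages but are also on the AM list, fell by 0.47 and 0.45 under TMM, and neither was called when scaled to that list (-0.03 and -0.01). Cdh1 fell by 0.16 under TMM but was higher by 0.28 under AM marker scaling. Of 7 tested STAT4 targets, 4 were higher and 2 lower, again beside 29.0% higher and 24.8% lower over all genes tested. The interleukin-18 receptor chains Il18rap (5.75) and Il18r1 (2.86) and the transcription factor gene Hlx (2.47) had the largest rises, and Gadd45g fell by 0.35 under TMM but was not called under AM marker scaling (0.09, edgeR adjusted p = 0.238). Il18rap had 1.71 and 1.46 CPM in the control libraries and 85.2 and 86.5 CPM in the tumor libraries. Summed markers of T and NK cells (6.88 to 8.24 against 29.2 to 30.1 CPM), of basophils and mast cells (2.29 to 2.34 against 531 to 534 CPM) and of eosinophils were higher beside these genes, and their part was not tested.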

How the data were processed

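Per the labels, total RNA of AMs was extracted with TRIzol and made into NEBNext Ultra libraries. The authors aligned paired-end reads with HISAT2 2.0.5 and assigned them to genes with featureCounts. Each deposited column holds raw counts of 1 library, beside gene coordinates and lengths. Build, annotation, strand setting and handling of reads with several matches are not given in the sources used here. Coordinates were identical to GENCODE M21 (GRCm38) for 98.3% of the 54409 matched identifiers and for all 6 STAT genes.

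Groups were taken from the sample titles. Counts were filtered (filterByExpr, minimum 10), scaled by TMM and tested across the whole table with edgeR 4.0.16 (R 4.3.3), quasi-likelihood, Benjamini-Hochberg adjustment, threshold 0.05. The script was tested on simulated counts with 200 changed genes. FPKM and CPM used the totals of 16167147 to 19205737 counts scaled by TMM (trimmed mean of M-values), and a count of 0 allows up to 3 counts (0.153 to 0.19 CPM per library). Intervals and floors cover counting error only. Log2 CPM for likeness used a prior count of 2. Alternatives were other scalings and filters, DESeq2 1.42.0, limma 3.58.1 with voom, stricter thresholds, a replicate block and leaving out each library.

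The STAT genes and gene lists were chosen with earlier results of these data known. Named genes were the 6 STAT genes, all JAK kinases, up to 3 rises and 3 falls per pathway list among called genes (at least 50 counts on average in the group where the gene was higher), genes at or under 3 counts in each library, tested neighbours within 50 kb, and the 3 genes most like each STAT gene. Il12rb1, Ifnlr1 and Prf1 were named in addition, after their values were seen.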

Additional observations from a re-analysis of the deposited data

How the results depend on the processing

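All 5 tested STAT genes kept their rise in direction under the 14 alternatives that refitted the data, with log2 changes of 0.17 to 0.66 for Stat2, 0.13 to 0.60 for Stat3, 0.22 to 0.69 for Stat5a, 0.55 to 1.03 for Stat5b and 0.15 to 0.61 for Stat6. Leaving out 1 library at a time, in fits where the lone library of a group is assumed to vary like the other pair, gave 4 to 5 STAT genes higher, and Stat2 ranged from 0.17 to 0.25. Stat2 was not called by the DESeq2 Wald test (0.21) or at an adjusted p under 0.01 (0.22). With a log2 change of at least 1 required, 0 STAT genes were called (0.22 for Stat2, 0.16 for Stat3, 0.25 for Stat5a, 0.59 for Stat5b and 0.17 for Stat6), and 40 pathway genes were higher and 6 lower. Scaling on AM markers left 10 pathway genes lower. Among the named pathway genes alone, it reversed Tyk2 (0.26), Csf2ra (0.074), Osm (0.19), Cish (0.27), Socs3 (0.31), Socs7 (0.15), Ptpn11 (0.061), Ncoa1 (0.34), Gadd45g (0.091) and Cdh1 (0.28) in sign. Of these, Socs7, Ptpn11 and Gadd45g were not called there. With total counts as library sizes the levels in FPKM were 29.2 (control) and 34.0 (tumor) for Stat3, 0.0928 (tumor) for Stat4, 5.67 (control) for Stat5a, 13.1 and 20.7 for Stat5b and 66.3 and 78.1 for Stat6, and with DESeq2 size factors Stat5b was 20.2 in the tumor group. Of 967 values of named pathway genes under alternatives, 895 kept direction and call, 62 lost the call and 10 reversed. Genes called over the whole table were 7671 in edgeR, 5858 in DESeq2, 10262 under AM marker scaling and 2268 with a log2 change of at least 1. The labels do not say whether control and tumor libraries of the same number shared a batch. The correlation of their deviations was -0.00278, which cannot decide it, because the deviations hold counting error. With a replicate block 5 STAT genes were higher, with 64 pathway genes higher and 28 lower. At 2 to 7 counts per library, depth limits what can be said of Stat4 (0.77 ± 0.94 without a filter).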
